A study of Mus musculus with 10 samples.

Results

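Genes of noradrenergic, adrenergic and dopaminergic neurons were compared between wild-type and Nkx2.2-/- newborn mice, as a control for the lower serotonergic transcripts of the Nkx2.2-/- hindbrain. They were 9 of the 18193 genes that the array's annotation names: Th, Dbh and Pnmt, which encode enzymes of catecholamine synthesis, Slc6a2 and Slc6a3, which encode the noradrenaline and dopamine transporters, and Phox2a, Nr4a2, Pitx3 and Lmx1a, which encode transcription factors. Every probe set annotated with one of these genes was taken, 21 of the 45037 non-control probe sets, and each carried 1 symbol. Expression was measured with 1 array per mouse in pons, medulla and rostral spinal cord from 20 µm sections, in 5 wild-type mice (numbered 14, 15, 16, 18 and 21) and in 5 littermates of genotype Nkx2.2-/- (numbered 11, 12, 22, 29 and 43). All mice were of the C57BL/6 strain and 1.5 to 2 days old, with no treatment other than anaesthesia and perfusion named in the labels. The labels give neither how the allele was made nor the sex or litter of a mouse, and a whole-tissue extract cannot tell fewer cells of a type from less RNA per cell.

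Catecholamines are made from tyrosine. Th converts tyrosine to L-DOPA, the rate-limiting step, Ddc makes dopamine from it, Dbh turns dopamine into noradrenaline inside vesicles, and Pnmt methylates noradrenaline to adrenaline. In the hindbrain the noradrenergic neurons lie in the locus coeruleus and in scattered groups of pons and medulla, where a few cells are adrenergic, and their fate is set in part by the paired homeodomain factor Phox2a. Dopamine neurons of the midbrain depend on Nr4a2, Pitx3 and Lmx1a and take dopamine back up through Slc6a3. Serotonergic neurons, which arise from progenitors that express Nkx2.2, use Tph2 and Slc6a4 for the first step of synthesis and for uptake, and share Ddc, the vesicular transporter Slc18a2 and the cofactor enzyme Gch1 with catecholamine neurons.

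No probe set of the 9 genes passed the test in either direction. By limma over all non-control probe sets with Benjamini-Hochberg adjustment at 0.05, 0 of the 21 member probe sets were lower and 0 were higher in the Nkx2.2-/- mice, against 23 of 45037 probe sets called in the series, or 0.0511%, all of them lower. At an unadjusted limma p under 0.05 the count was also 0 of 21, against 3.43% of all probe sets. The smallest unadjusted p among the members was 0.161, and every member had a limma adjusted p of 0.9997. At these background shares few or no calls would be met among 21 probe sets of any kind, so the counts alone say little, and the sizes of the changes and their intervals are given below. The intervals of all 21 included 0. In sign 14 probe sets were lower and 7 higher, with a median log2 change (Nkx2.2-/- minus wild type) of -0.033, against 0.0010 over all probe sets, of which 49.2% were lower.

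The signal of a probe set limits what a change can show. RMA values carry no detection call, so a probe set was called bright when its mean log2 value over all 10 arrays was above 5.09, the median of these means over all non-control probe sets, and near background otherwise. Of the members 12 probe sets of 6 genes were bright (Th, Dbh, Pnmt, Slc6a2, Phox2a and Nr4a2), and 9 were near background, among them the only probe sets of Slc6a3, Pitx3 and Lmx1a. The dimmest bright member had a mean of 5.19 and the brightest one below the limit a mean of 5.07. Brightness is not detection: of 20 probe sets of 14 measured genes of other organs (sperm, milk, kidney, lung, egg, gut and gland genes), 2 were also above the limit, and the median mean level of the 20 was 4.54. One of those above it, of the sperm gene Prm1, averaged 5.50, more than Th (5.42) and Phox2a (5.21). A change in these bright members may therefore be compressed too. In the bright members log2 changes ran from -0.36 to 0.067, 10 of 12 being lower in sign. Their median was -0.051, against -0.010 over all bright probe sets. The 12 came from 6 genes, so they are not separate observations. In the members near background they ran from -0.038 to 0.048 with a median of 0.00058, and there a difference between the genotypes would be compressed towards 0.

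**Figure D1:**
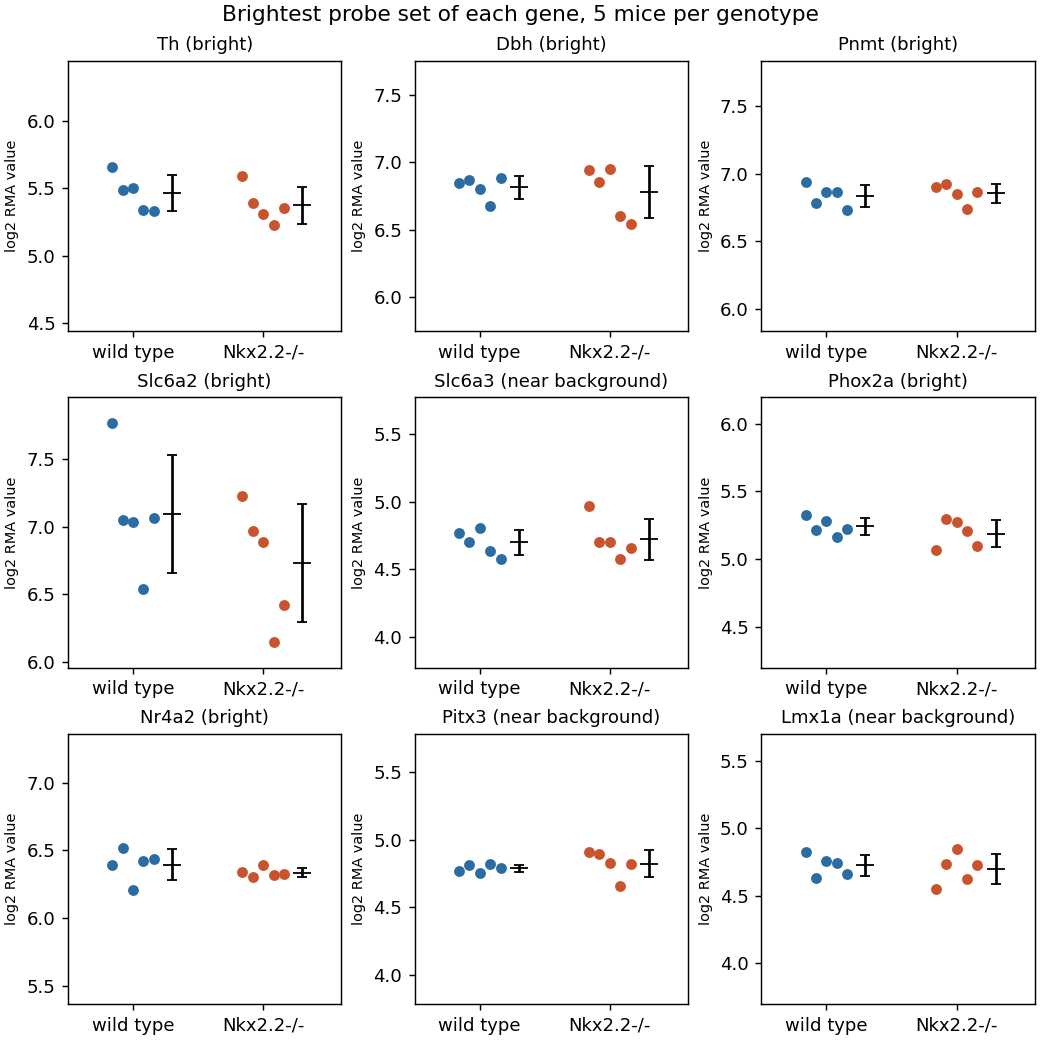
Log2 RMA values (vertical axes, all of equal span) of the brightest probe set of each of the 9 genes in 5 wild-type (blue) and 5 Nkx2.2-/- (orange) mice, each point a mouse and each bar the mean ± SD. The genotypes overlap in all 9 panels, and Slc6a2 has the widest spread, from 6.15 to 7.77.

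The promoters of Th and Dbh are shown because both genes are bright here and are expressed in the same noradrenergic cells. The sequences are the 250 bases before the start of each gene in the RefSeq annotation of GRCm38.p6, Th at chr7:142899996-142900245 on the minus strand and Dbh at chr2:27165257-27165506 on the plus strand, 5′ to 3′. Capitals mark 2 motifs searched on both strands: TGACGTCA, the cyclic AMP response element, and ATTA (TAAT on the other strand), the core bound by many homeodomain proteins.
Th: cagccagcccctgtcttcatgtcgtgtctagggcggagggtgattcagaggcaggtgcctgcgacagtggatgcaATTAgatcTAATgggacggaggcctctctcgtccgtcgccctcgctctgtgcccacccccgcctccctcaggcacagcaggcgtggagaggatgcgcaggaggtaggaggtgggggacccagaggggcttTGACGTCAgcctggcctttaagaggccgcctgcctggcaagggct
Dbh: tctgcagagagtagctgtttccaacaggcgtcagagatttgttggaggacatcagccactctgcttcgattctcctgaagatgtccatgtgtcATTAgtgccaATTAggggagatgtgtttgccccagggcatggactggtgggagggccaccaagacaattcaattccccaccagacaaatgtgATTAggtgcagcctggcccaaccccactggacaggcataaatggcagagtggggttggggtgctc
Th held 1 match to TGACGTCA, starting 45 bases before the gene start, and 2 to ATTA. Dbh held 3 matches to ATTA and none to TGACGTCA. Of 32841 promoter windows of this length, 1.55% held TGACGTCA and 54.9% held ATTA, so the second motif is common. The core AAGTG, bound by factors of the Nkx2 family, was in neither window and in 40.7% of all windows. It matched once each in the windows of Lmx1a, Slc6a3 and Pitx3, and in none of those of Nr4a2 and Phox2a. Promoters of 7 of the 9 genes were in the table, and Slc6a2 and Pnmt were not analysed here.

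Th, the enzyme that defines all catecholamine neurons, was read by 1 bright probe set whose mean lay above 59.4% of probe sets. It measured 5.66, 5.48, 5.50, 5.34 and 5.33 in wild-type replicates 14, 15, 16, 18 and 21, and 5.59, 5.39, 5.31, 5.22 and 5.35 in Nkx2.2-/- replicates 11, 12, 22, 29 and 43. The ranges overlapped, with 2 Nkx2.2-/- mice, replicates 22 and 29, below every wild-type mouse. Wild-type mice averaged 5.46 ± 0.134 and Nkx2.2-/- mice 5.37 ± 0.135 (SD, n = 5 each). The log2 change between them, -0.090 (SE 0.0785), had a 95% interval from -0.26 to 0.083. Without 1 mouse the change ran from -0.14 (Nkx2.2-/- replicate 11 left out, unadjusted limma p of 0.0691) to -0.042 (wild-type replicate 14 left out), and it was -0.054 without Nkx2.2-/- replicate 29. The interval over all 10 mice allows Th to be at most 1.20-fold lower or 1.06-fold higher in signal. That bound is on array signal at a mean of 5.42, below the 5.50 of the sperm gene Prm1. It may understate a change in transcript.

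Dbh, which makes noradrenaline, had 3 probe sets, all bright. The brightest measured 6.85, 6.87, 6.80, 6.67 and 6.88 in wild-type replicates 14, 15, 16, 18 and 21, and 6.94, 6.85, 6.95, 6.60 and 6.55 in Nkx2.2-/- replicates 11, 12, 22, 29 and 43. In the Nkx2.2-/- group 2 mice lay above every wild-type mouse and 2 below, and the log2 change of -0.036 had a 95% interval from -0.23 to 0.15. The other probe sets had log2 changes of -0.14 (interval -0.42 to 0.13) and -0.050 (interval -0.19 to 0.095). The middle one therefore allows a decrease of up to 1.34-fold, the widest of the 3. The 3 probe sets followed each other over the 10 mice, with Pearson's r between 0.845 and 0.876 (given as a description).

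Slc6a2, the noradrenaline transporter, had the largest value of the 9 genes and also the largest spread. Its brightest probe set measured 7.77, 7.05, 7.04, 6.54 and 7.06 in wild-type replicates 14, 15, 16, 18 and 21, and 7.23, 6.97, 6.89, 6.15 and 6.42 in Nkx2.2-/- replicates 11, 12, 22, 29 and 43. Replicate 14 was highest among the wild-type mice and replicates 29 and 43 were lowest of all, while the other mice of both groups mixed. Wild-type mice averaged 7.09 ± 0.438 and Nkx2.2-/- mice 6.73 ± 0.438 (SD, n = 5 each). The log2 change between them, -0.36 (SE 0.240), had a 95% interval from -0.89 to 0.17 and an unadjusted limma p of 0.161. Single mice moved the change in both directions. It was -0.19 without wild-type replicate 14 and -0.22 without Nkx2.2-/- replicate 29, and it was -0.50 without wild-type replicate 18 (unadjusted limma p of 0.0586) and -0.49 without Nkx2.2-/- replicate 11 (unadjusted limma p of 0.0710). The second bright probe set changed by -0.037 (interval -0.17 to 0.097), and the 2 near background by 0.00058 and -0.0045. The interval of the brightest probe set allows a decrease of up to 1.86-fold, so for this gene a moderate decrease was not detectable with 5 mice a group.

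Pnmt, the marker of adrenergic cells, had 3 probe sets of unequal signal. The brightest lay above 83.3% of probe sets, between 6.73 and 6.94 in the wild-type mice and between 6.74 and 6.93 in the Nkx2.2-/- mice, with a log2 change of 0.021 (interval -0.089 to 0.13). The others changed by -0.052 and 0.023. Over the 10 mice the brightest did not track the other probe sets, with Pearson's r of -0.0042 and -0.15 (descriptions), so its bright signal was not paralleled by theirs.

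Slc6a3, the dopamine transporter, was near background in every mouse, from 4.57 to 4.81 in wild type and from 4.57 to 4.97 in Nkx2.2-/- mice. Its log2 change of 0.022 (interval -0.14 to 0.18) is that of a signal above only 33.3% of probe sets, and a change in the gene itself could be compressed or missed at this level.

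Among the transcription factors, Phox2a, which specifies noradrenergic and visceral motor neurons, was just bright, above 53.9% of probe sets. It measured 5.32, 5.21, 5.28, 5.17 and 5.22 in wild-type replicates 14, 15, 16, 18 and 21, and 5.07, 5.30, 5.27, 5.21 and 5.10 in Nkx2.2-/- replicates 11, 12, 22, 29 and 43. Replicates 11 and 43 of the Nkx2.2-/- mice were below every wild-type mouse, and the other 3 were within the wild-type range. The log2 change was -0.053 (SE 0.0539, interval -0.17 to 0.066). It ran from -0.080 without Nkx2.2-/- replicate 12 to -0.023 without replicate 11 of that group.

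Nr4a2, an orphan nuclear receptor of dopamine neurons that other neurons also express, had 6 probe sets, 3 of them bright. The brightest measured 6.39, 6.52, 6.21, 6.42 and 6.44 in wild-type replicates 14, 15, 16, 18 and 21, and 6.34, 6.30, 6.39, 6.32 and 6.32 in Nkx2.2-/- replicates 11, 12, 22, 29 and 43. All 5 Nkx2.2-/- mice lay within the wild-type range, and the log2 change was -0.061 (interval -0.18 to 0.059). Replicate 16 was the only wild-type mouse below any Nkx2.2-/- mouse. Without it the groups no longer overlapped, with a log2 change of -0.11 (unadjusted limma p of 0.0225, which did not pass the adjustment). The margin was narrow, with the lowest remaining wild-type mouse at 6.394 and the highest Nkx2.2-/- mouse at 6.391. How many of all probe sets separate in such a run was not counted. The other bright probe sets changed by -0.033 and 0.067, and the 3 near background by -0.038, 0.048 and -0.019. Pairs of its probe sets had Pearson's r from -0.63 to 0.27 over the 10 mice, given as a description, so the 6 did not vary as 1 signal. Immediate early genes, a class that holds the relatives Nr4a1 and Nr4a3, had a median log2 change of -0.073 over 10 measured members and 0 calls (limma), with list means from 5.72 to 6.10 in wild type and from 5.77 to 5.90 in Nkx2.2-/- mice. Their part in the Nr4a2 values was not tested.

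Pitx3, a homeodomain factor of midbrain dopamine neurons, and Lmx1a, a LIM homeodomain factor of the midbrain floor plate and of the roof plate, were near background. Pitx3 lay between 4.75 and 4.82 in wild type and between 4.66 and 4.91 in Nkx2.2-/- mice, with 4 of the 5 Nkx2.2-/- mice above every wild-type mouse. Its log2 change was 0.035 (interval -0.072 to 0.14). It became 0.076 when Nkx2.2-/- replicate 29, the only mouse of that group not above the wild-type mice, was left out. The groups then separated by a narrow margin, with the lowest Nkx2.2-/- mouse at 4.824 and the highest wild-type mouse at 4.822. Lmx1a lay between 4.63 and 4.83 in wild type and between 4.55 and 4.85 in Nkx2.2-/- mice, with a log2 change of -0.028 (interval -0.16 to 0.10). Genes of choroid plexus and roof plate, where Lmx1a is also expressed, varied widely between mice, with list means over 7 measured genes from 5.80 to 7.12 in wild type and from 5.43 to 6.95 in Nkx2.2-/- mice.

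Between the genotypes, 0 of the 21 member probe sets had groups that did not overlap, against 341 of 45037 (0.757%) in the series. Of all probe sets 0.442% had the Nkx2.2-/- group wholly lower. With 1 probe set per gene, limma called 0 of the 9 genes, against 0.0605% of 18193 genes.

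The serotonergic and shared genes gave the contrast to these values. Tph2, the serotonergic counterpart of Th in that both hydroxylate an aromatic amino acid, fell by 1.44 on the log2 scale (interval -1.73 to -1.15, limma adjusted p = 0.00144), and Slc6a4, the serotonin transporter, fell by 1.40 (interval -1.78 to -1.01, limma adjusted p = 0.0165). The members of the serotonergic list other than these 2 did not pass (Gata2, Gata3, Lmx1b and Htr1a, log2 changes of 0.050, -0.18, 0.15 and 0.11). Of the 6 shared amine genes 0 passed, but Ddc (-1.17, interval -1.59 to -0.75, limma adjusted p = 0.124), Slc18a2 (-0.47, interval -0.69 to -0.25, limma adjusted p = 0.534) and Gch1 (-0.27, interval -0.39 to -0.16, limma adjusted p = 0.409) had separated groups, each with all 5 Nkx2.2-/- mice below every wild-type mouse. The second probe set of Gch1, near background, changed by -0.47 (limma adjusted p = 0.0643) and that of Ddc by -0.054. Maoa, Maob and Cyb561, which break down amines or supply electrons to Dbh, had log2 changes of -0.060, -0.13 and -0.14 and overlapping groups.

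**Figure D2:**
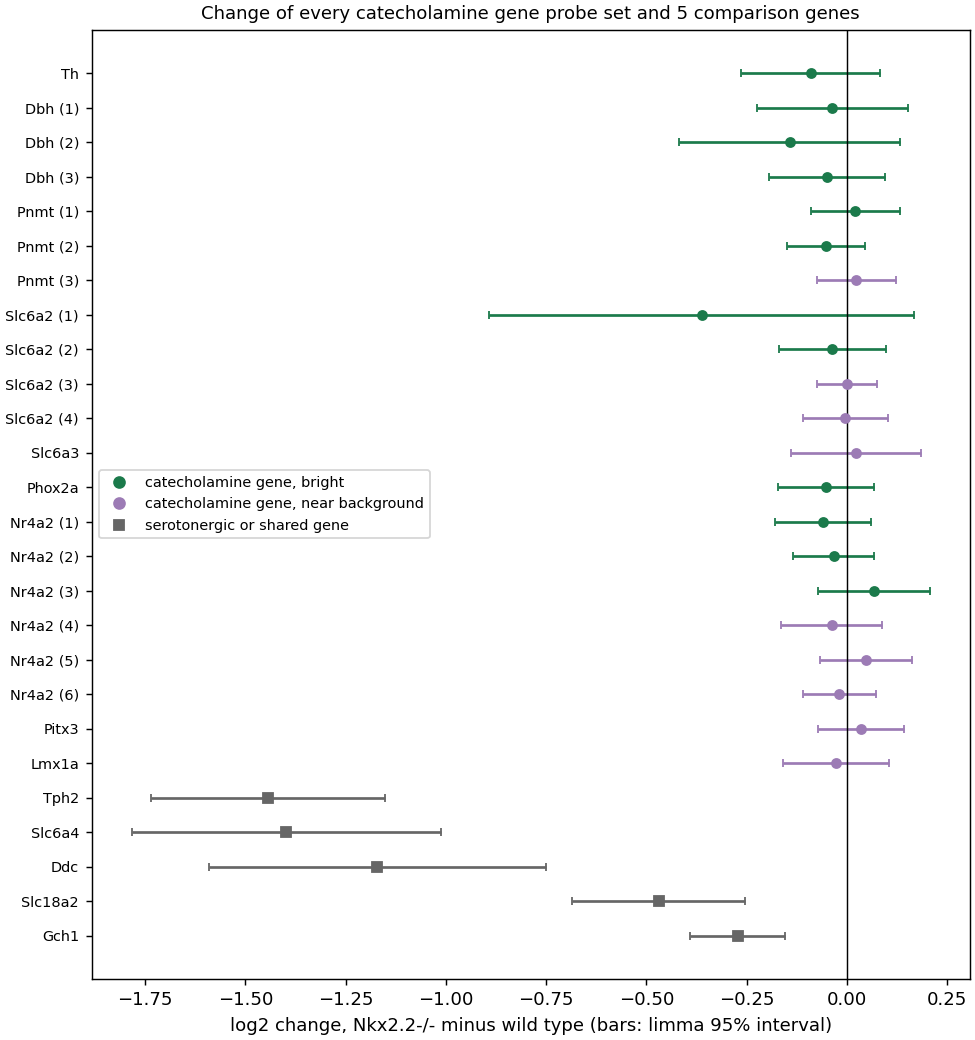
Log2 change (Nkx2.2-/- minus wild type, horizontal axis) of all 21 member probe sets, bright in green and near background in violet, numbered from the brightest within a gene, and of the brightest probe set of 5 serotonergic or shared genes (grey squares). Points are limma estimates and bars 95% intervals over 10 mice: every catecholamine gene interval includes 0, while those of Tph2, Slc6a4, Ddc, Slc18a2 and Gch1 lie below it.

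Whether the serotonergic or shared gene changed more than its catecholaminergic counterpart was tested directly, by comparing the difference of 2 log2 values within each mouse between the genotypes. Of 6 planned pairs 5 were run, and Fev against Phox2a was not analysed here. Each of the 5 separated the genotypes completely, with all 5 Nkx2.2-/- mice below every wild-type mouse, an exact two-sided permutation p of 0.00794, the smallest that 5 against 5 can give, and the same value after Benjamini-Hochberg adjustment over the 5 pairs. The pairs were chosen with the lower Tph2 and Slc6a4 known, and Th and Slc6a4 each stand in 2 of them, so the 5 are neither independent of that result nor of each other. In each pair the first gene alone already had all 5 Nkx2.2-/- mice below every wild-type mouse. The permutation p-values therefore partly restate that gene, and the sizes of the differences are the added information.

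Tph2 minus Th was 0.36 ± 0.275 in wild type and -0.99 ± 0.116 in Nkx2.2-/- mice (SD, n = 5 each). The difference of the changes was -1.35, with an exact 95% permutation interval of -1.67 to -1.06. In the Nkx2.2-/- mice Tph2 lay between 4.12 and 4.64, below the limit of 5.09 for bright probe sets and around the 4.54 of the genes of other organs. A signal that low is compressed, so this value and the change of Tph2 are differences of array signal that may understate the difference in transcript, and neither is an exact size. Slc6a4 minus Slc6a2 differed by -1.04 (interval -1.79 to -0.32). Slc6a4 minus Slc6a3 differed by -1.42 (interval -1.81 to -0.94), but Slc6a3 was near background, so this pair restates the change of Slc6a4. Ddc minus Th differed by -1.08 (interval -1.51 to -0.67). That value holds for the bright probe set of Ddc and was -0.52 with the mean of its 2 probe sets, the dimmer of which changed by -0.054. Slc18a2 minus Dbh, both proteins of amine vesicles, differed by -0.43 (interval -0.63 to -0.25), and by -0.33 with the second Dbh probe set (exact two-sided permutation p = 0.0238, chosen after seeing the data).

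**Figure D3:**
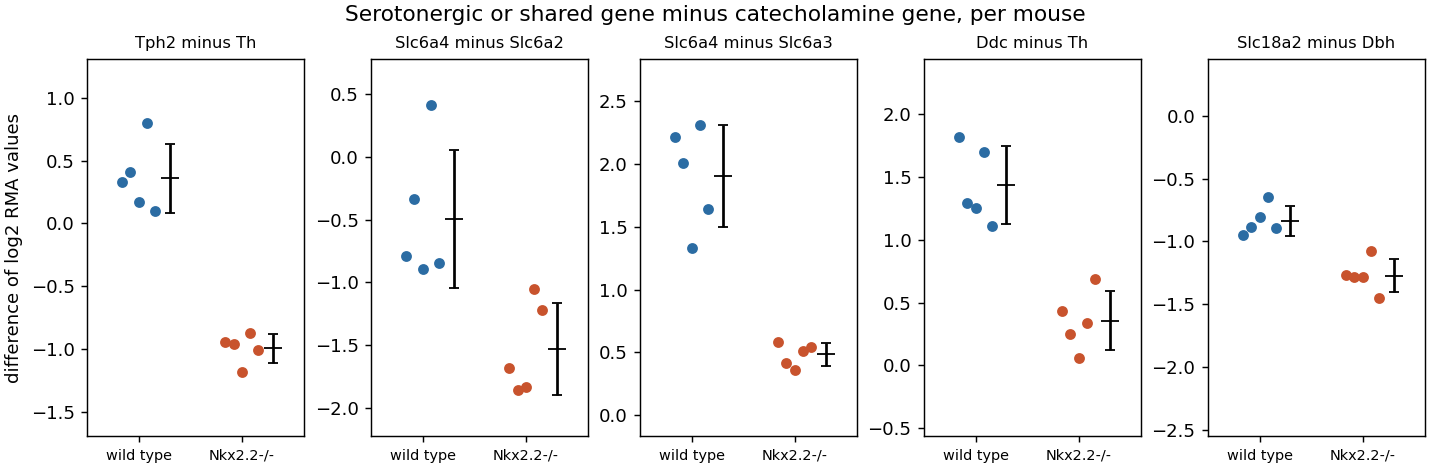
Difference of 2 log2 RMA values within each mouse (vertical axes, all of equal span), serotonergic or shared gene minus catecholamine gene, for 5 wild-type (blue) and 5 Nkx2.2-/- (orange) mice with mean ± SD. In each panel all 5 Nkx2.2-/- mice lie below all 5 wild-type mice.

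Over the 10 mice, Th and Slc6a2 varied together, also within the genotypes. Their brightest probe sets had Pearson's r = 0.857 (permutation p = 0.00133, adjusted 0.0479 over the 36 pairs of the 9 genes) and Spearman's rho = 0.733 (permutation p = 0.0193, adjusted 0.347). With the genotype means removed r was 0.835. Without Nkx2.2-/- replicate 11 and wild-type replicate 14, the mice farthest from the median of Th, r was 0.701. The second Slc6a2 probe set had r = 0.828 with Th, given as a description. By r, 1 of 36 pairs passed the adjustment, and by rho 0 of 36 did.

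The other pairs did not pass the adjustment, though not all were weaker by every measure. Dbh and Slc6a2 had r = 0.744 (permutation p = 0.0111, adjusted 0.133) and rho = 0.588 (permutation p = 0.0800, adjusted 0.451), and r fell to 0.417 without Nkx2.2-/- replicates 29 and 43, so that relation rests on those mice. Th and Dbh had r = 0.462 (permutation p = 0.179, adjusted 0.499) and rho = 0.103 (permutation p = 0.785, adjusted 1). Th and Slc6a3 had r = 0.795 (permutation p = 0.00485, adjusted 0.0873) and rho = 0.867 (permutation p = 0.00226, adjusted 0.0814), though Slc6a3 was near background. With the genotype means removed the r of Th and Slc6a3 was 0.890, and without Nkx2.2-/- replicate 11 and wild-type replicate 14 it was 0.801. Except for the plain r, these values were above those of Th and Slc6a2. Wild-type replicate 14 and Nkx2.2-/- replicate 11 were the highest in their groups for both Th and Slc6a2, and Nkx2.2-/- replicate 29 was the lowest of all 10 in both.

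**Figure D4:**
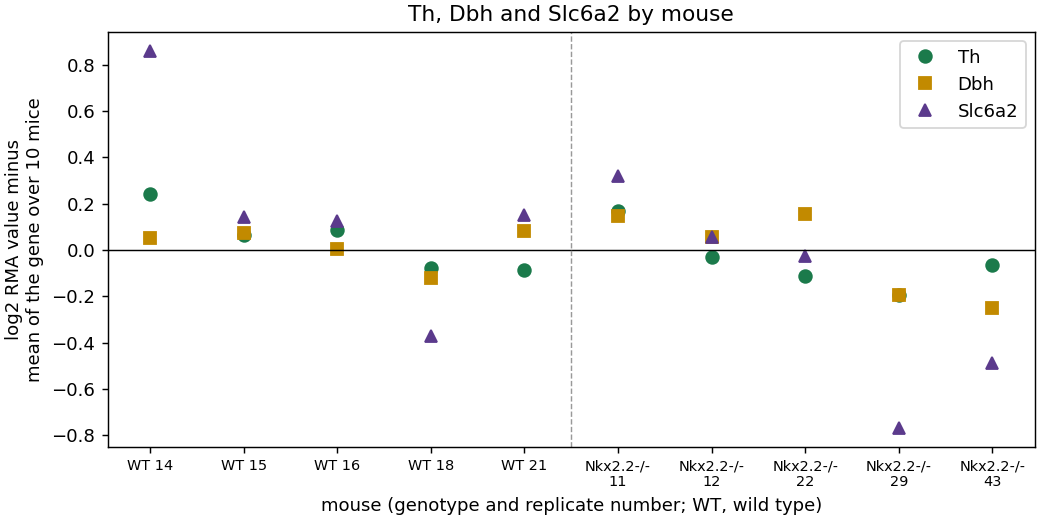
Log2 RMA value of the brightest probe set of Th, Dbh and Slc6a2 minus that gene's mean over 10 mice (vertical axis), by mouse (horizontal axis, wild type left of the dashed line). Wild-type replicates 14, 15 and 16 and Nkx2.2-/- replicate 11 are above 0 for all 3 genes, and wild-type replicate 18 and Nkx2.2-/- replicates 29 and 43 are below 0 for all 3.

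Measures of dissection and RNA are given beside this pattern. The mean of 7 Hox genes of the spinal cord was 5.16 to 5.36 in wild type and 5.29 to 5.97 in Nkx2.2-/- mice, highest in Nkx2.2-/- replicates 22 and 29. Against it Th had r = -0.693 (permutation p = 0.0265, adjusted 0.239 over 9 relations) and rho = -0.697 (permutation p = 0.0305, adjusted 0.219), and Slc6a2 had r = -0.607 (permutation p = 0.0683, adjusted 0.269) and rho = -0.648 (permutation p = 0.0488, adjusted 0.219). Dbh had r = -0.245 (permutation p = 0.519, adjusted 0.988) and rho = -0.079 (permutation p = 0.838, adjusted 0.865). Without Nkx2.2-/- replicates 22 and 29 the r of Th, Slc6a2 and Dbh were -0.486, -0.591 and -0.567. None of the 9 relations passed the adjustment. The mean of 9 genes of the neighbouring cerebellum had r of 0.010, 0.0052 and -0.050 (permutation p from 0.896 to 0.988) and rho of -0.13, -0.21 and -0.10 (permutation p from 0.560 to 0.785) with Th, Dbh and Slc6a2. Because the Hox mean goes partly with genotype in these mice, a fit that holds both cannot fully tell them apart. With the Hox mean as a covariate the log2 changes of Th, Dbh and Slc6a2 were 0.044, 0.011 and -0.037, nearer to 0 than without it. Under the same covariate other members moved away from 0: Pitx3 to 0.12 (unadjusted limma p of 0.0417, which did not pass the adjustment), Slc6a3 to 0.13, Pnmt to 0.093, Phox2a to -0.090 and Lmx1a to -0.070, while Nr4a2 was at -0.060. The other measure was the 3 prime minus 5 prime difference of the Gapdh control probe sets. It reached 2.13 on the array of wild-type mouse 14 and 3.78 on that of Nkx2.2-/- mouse 43, against -0.32 to 0.13 for the other 8. Its r with Th, Dbh and Slc6a2 was 0.144, -0.527 and -0.038 (permutation p of 0.690, 0.0897 and 0.930, adjusted 0.988, 0.269 and 0.988). The rho were -0.067, -0.406 and -0.285 (permutation p of 0.865, 0.248 and 0.426), and without those 2 arrays the r were -0.348, -0.314 and -0.563. Without those 2 arrays the change of Slc6a2 was -0.12 and that of Th was -0.037. The part of either measure in the mouse-to-mouse pattern was not tested.

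The genes whose brightest probe set was most like that of Th, among 12100 other bright genes by Pearson's r over the 10 mice (a description), were Mgme1 (0.896), Hsd11b1 (0.881), Tmem38b (0.869) and Slc6a2 (0.857). For Dbh they were Tmem213 (0.965), Vpreb3 (0.951), Loxl3 (0.934) and Tex26 (0.888). Slc6a2 was the only other member among these 8, and Slc6a3, Pitx3 and Lmx1a, being near background, were not candidates.

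In the lists of other catecholamine pathway genes no gene was called by limma. With 0.0605% of genes called in the series, lists of 5 to 10 genes would rarely hold a call, so these counts say little and the values are given as a description. Of 5 measured genes of noradrenergic specification 0 passed, with a median log2 change of -0.010. Tfap2b and Tfap2a, factors of the AP-2 family, changed by -0.081 and -0.0013, Insm1, a zinc finger factor of newborn neurons, by -0.33 (SE 0.330), and Tlx3, a homeodomain factor, by -0.010. Of 10 genes of dopaminergic specification 0 passed, with a median of -0.053 and values from -0.69 for En2, named after its value was seen, to 0.15 for Lmx1b. En2 moved with the cerebellum genes: it measured 6.73 and 6.09 in wild-type replicates 18 and 21 and 6.57 in Nkx2.2-/- replicate 11, and at most 5.72 in the other 7 mice. In those 3 mice the mean of the 9 cerebellum genes was 7.65, 7.20 and 7.41, against 6.37 to 6.58 in the other 7. Otx2, of the same list, followed these mice (6.54, 5.77 and 6.23, against at most 5.08), and so did Insm1 (7.39, 6.36 and 6.82, against at most 5.94). The part of cerebellar tissue in these changes was not tested. The brightest of them were Ret, a receptor for GDNF ligands (0.089), Lmx1b (0.15), Aldh1a1, an aldehyde dehydrogenase (-0.093), and Msx1 (-0.093). Of 6 measured catecholamine receptor genes 0 passed, with a median of 0.028. Only Adra2c and Drd2, an adrenergic and a dopamine receptor, were bright, at 0.021 and 0.019. Of 5 measured genes of visceral motor neurons, which share Phox2a, 0 passed, with a median of 0.035 and Prph, Isl1, Slc18a3 and Chat at 0.061, -0.024, 0.045 and 0.035. The median log2 change over all probe sets was 0.0010.

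The targeted gene separated the genotypes. Nkx2-2, read by 1 probe set, averaged 6.55 ± 0.186 in wild-type and 4.51 ± 0.207 in Nkx2.2-/- mice (SD, n = 5 each) and fell by 2.05 on the log2 scale (limma adjusted p = 7.2e-05), although where that probe set lies relative to the deleted part was not known here. Array medians ran from 5.07 to 5.12.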

How the data were processed

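RNA extracted with TRIzol was hybridised as biotinylated cRNA, 1 array per mouse, per the labels' protocols. The authors deposited log2 expression values from RMA (named in the submitters' processing notes), which corrects background and equalises the distributions of arrays and so hides a shift common to most transcripts. For RMA no version was at hand. Of 45101 probe sets 64 controls were left out. Groups came from the sample titles. The genotypes were tested in R 4.3.3 by the lmFit and eBayes functions of limma (version 3.58.1), with no covariate or filter and with adjustment over 45037 probe sets. Pairs of genes used exact permutation of 252 regroupings, whose inversion gave the 95% intervals. Correlations over mice used 100000 permutations. The tests were checked on simulated data. Python 3.11.15, pandas 2.3.3 and matplotlib 3.10.9 served for tables and figures. The members, lists, pairs and tests were chosen with earlier results of these data known, and the gene named for a list was any called member plus up to 4 of highest mean level. For a gene with several probe sets, the one of highest mean over all 10 arrays was given in every mouse. The number of arrays limits the precision, and litter, sex and batch were not used, so p-values measure the spread between these mice. Alternatives covered normalization, filters, priors, weights, covariates, thresholds and left-out arrays.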

Additional observations from a re-analysis of the deposited data

Results flagged for a closer look

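In 42 groups of 5 values (21 probe sets in 2 genotypes), 1 mouse stood apart from its group by Dixon's criterion, and chance gives about 1 in 20. It was wild-type replicate 21 in a Slc6a2 probe set near background, at 4.25 against 4.40 to 4.45 in the other wild-type mice, with a gap of 0.727 of the group's range.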

How the results depend on the processing

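The count of member probe sets called stayed at 0 under all 21 alternatives run by limma (normalization, filter, 1 probe set per gene, priors, array weights, covariates, each array or the 2 arrays of dim 5 prime Gapdh left out, and a threshold of 0.1), while calls over all features tested ran from 11 to 31. The 5 pair differences kept their direction and passed at 0.05 in all 50 runs without 1 array (largest exact permutation p 0.0159), with values from -1.42 to -1.24 for Tph2 minus Th, -1.15 to -0.81 for Slc6a4 minus Slc6a2, -1.56 to -1.32 for Slc6a4 minus Slc6a3, -1.16 to -0.98 for Ddc minus Th and -0.48 to -0.39 for Slc18a2 minus Dbh. Each pair separated the genotypes completely over all mice, so leaving out 1 array could not undo that separation or turn the direction. Those 50 runs therefore show only how far the values moved. Non-overlapping member probe sets were 0 to 1 without 1 array. Groups of fewer mice separate more easily, and the share of all probe sets separated in these runs was not counted.

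Of 186 further values of the 9 brightest probe sets 175 kept their sign and 11 turned it, none of them called. The count of 175 overstates stability, because priors, filters and thresholds leave a log2 change as it is. Only normalization, array weights, covariates and left-out arrays could turn a sign. Th was 0.044 with the spinal Hox covariate. Dbh was 0.011 with it, 0.027 with array weights and 0.030 without the 2 arrays of dim 5 prime Gapdh, and Phox2a was 0.0035 with array weights. Without 1 array Th ran from -0.14 to -0.042, Slc6a2 from -0.50 to -0.19, Phox2a from -0.080 to -0.023, Nr4a2 from -0.11 to -0.030, Pitx3 from 0.013 to 0.076, Dbh from -0.080 to 0.022, Pnmt from -0.0058 to 0.049, Slc6a3 from -0.041 to 0.058 and Lmx1a from -0.065 to 0.0090. With the limit set from genes of other organs, 15 probe sets were bright instead of 12, and they came from 6 genes, as before. No analysis paired by litter was possible because the labels do not give the litter of a mouse. Probe sets near background limit what Slc6a3, Pitx3 and Lmx1a can show.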
